A study of Ambystoma mexicanum with 17 samples.

Results

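Among the genes measured in cultured explants of axolotl (Ambystoma mexicanum) oropharyngeal endoderm, 100 stood highest at stage 39 relative to the stages before and after it, and these 100 are described here. They were chosen by the same measured values that are given below, so their rise to stage 39 and their fall to stage 41 are a description and carry no test. The choice started from 19649 genes. Of these, 2931 had a summed count of at least 100 over the 17 libraries and a count above 0 in at least 9 of them, and are called the kept genes. Counts were divided by the total of their library and multiplied by 1000000 (CPM), 10 was added, and the log2 was taken. The peak height of a gene is its stage 39 median on this scale minus the higher of its stage 37/38 and stage 41 medians. A stage 39 median above both others was found in 809 genes, 27.6% of the kept genes, and the 100 with the largest peak height are the members.

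Endoderm is the innermost layer of the embryo, and its oropharyngeal region forms the lining of the mouth and throat. In amphibians it contributes to the pharyngeal pouches, and in axolotls taste buds differentiate within it, also when the tissue is grown apart from the rest of the embryo. Axolotl stages are read from the outer form of the embryo, and an explant has no such form of its own. The explants were therefore dated by intact sibling embryos kept alongside.

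Embryos came from the Ambystoma Genetic Stock Center, and no genotype or strain is given for any group. The tissue was cut out at stage 15 and cultured in diluted L-15 medium with bovine serum albumin and the antibiotics penicillin, streptomycin and gentamicin, which all 3 groups share. RNA was sequenced from 6 stage 37/38, 6 stage 39 and 5 stage 41 libraries, with no other treatment in the labels. The labels call the libraries replicates but do not tell if each holds 1 explant or several, or if they came from separate embryos, so p-values reflect no more than how far these libraries vary, part of which may be technical. The titles carry letters in a run from A to J and a run from K to R, each with libraries of all 3 stages, and their meaning is not stated.

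A gene in these data is a cluster of transcripts from a Trinity assembly, which joins sequencing reads into transcripts without a genome. The files do not pair the identifiers with gene names, and 0 of the 19649 matched a symbol, locus tag or accession in the RefSeq gene table of the axolotl. No role can therefore be given to any member. No pathway list could be counted among them, and the labelled tissue could not be checked against its markers. At most 4 identifiers are printed for this reason, and other members are given by their rank in peak height. Gene lengths were not used here, so CPM values are read across libraries, and a difference in CPM between genes can also reflect gene length. In bulk RNA, fewer cells of a type and less RNA per cell cannot be told apart.

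Depth was low and uneven, with totals of 67838 to 748726 counts per library. A single read was worth 14.7 CPM in stage 41 replicate 4, the shallowest library, and 1.34 CPM in stage 41 replicate 2, the deepest. Stage 39 replicates 2 and 4 had the lowest TMM scaling factors, 0.632 and 0.470 against 0.828 to 1.39 in the others, and some of the results are also given without them.

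Peak heights ran from 1.43 to 5.02 on the log2(CPM + 10) scale, with a median of 1.77. A height of at least 2 was reached by 34 members, and 15 lay under 1.5. The members just inside and just outside the limit were close, with 1.43 for the last member and 1.41 for the next gene. The median member had a stage median of 6.99 CPM at stage 37/38, 70.7 CPM at stage 39 and 0 CPM at stage 41. In the kept genes as a whole the corresponding medians were 38.9, 34.7 and 37.1 CPM. Stage 37/38 had the second highest median in 54 members and stage 41 in 32, and 14 were level because their median was 0 in both. A median of the 6 libraries of stage 37/38 is the mean of the middle pair, and that of the 5 of stage 41 is a single value. Medians of 0 therefore do not arise equally easily at these stages, and nothing is read from the difference between them. On average 58.3 members had a count above 0 in a stage 37/38 library and 54.4 in a stage 41 library.

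These values rest on few reads. The stage 39 median of a member was 4 to 876.5 counts, with a median of 15.5, and it was under 10 counts in 25 of the 100. The summed count over all libraries was 209 in the median member and 229 in the median kept gene, and 49 members had a sum under 200, against 43.1% of the kept genes. A median of 0 was found in 20 members at stage 37/38 and in 51 at stage 41, although each member had a count above 0 in at least 1 library of every stage. These medians are over 6 and 5 libraries, so nothing is read from the difference. Such a count can be a small fraction of a read. The member at rank 40 had no more than 0.03 expected counts in replicate 2 and 0.01 in replicate 4 at stage 37/38. Counts in all 17 libraries were present in 4 members, against 15.7% of the kept genes.

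**Figure D1:**
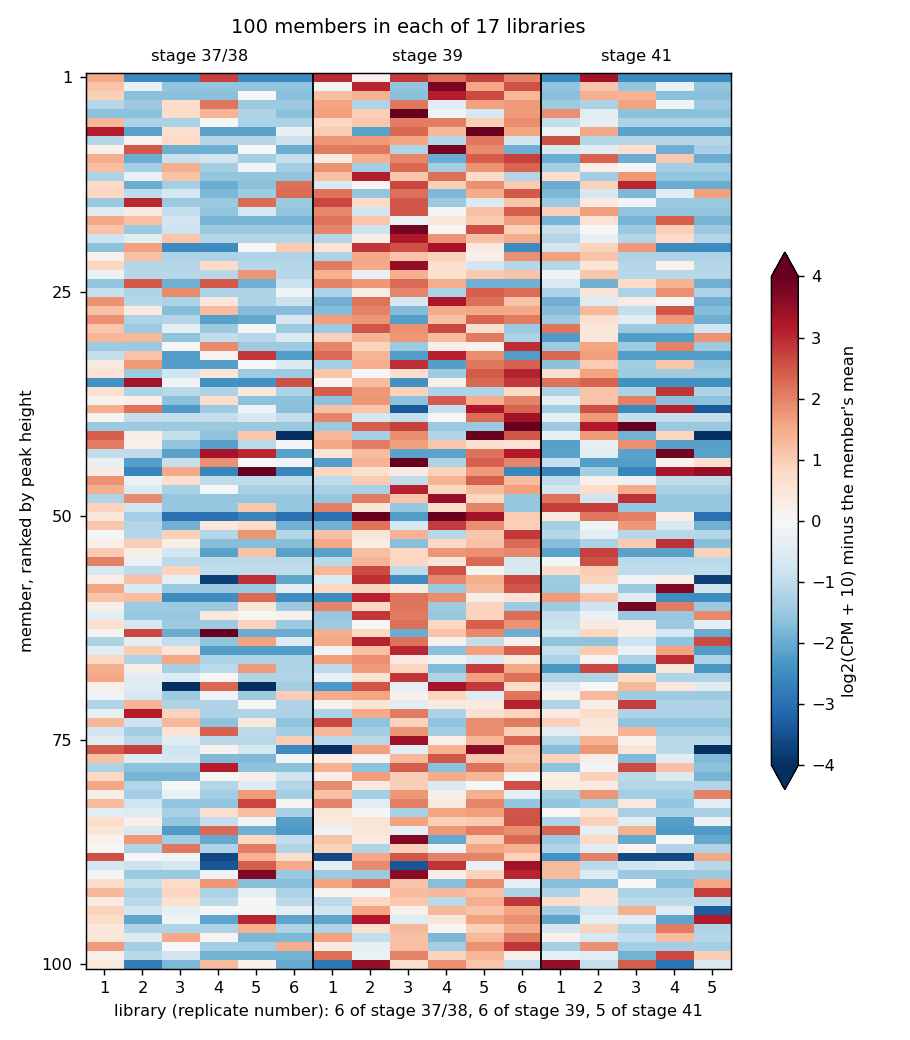
Level of each of the 100 members (rows, ranked by peak height) in each of the 17 libraries (columns, by stage and replicate number), as log2(CPM + 10) minus the member's own mean; colours saturate at 4 units. The stage 39 block is redder by the way the members were chosen, but no row has all 6 stage 39 libraries above every stage 37/38 library, and stage 37/38 replicate 1 and stage 41 replicate 2 hold many pale or red cells.

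The stage 39 libraries did not carry the members evenly. Summed over the members, stage 39 replicate 1 had 6782 CPM, replicate 2 had 21206, replicate 3 had 12666, replicate 4 had 22919, replicate 5 had 24444 and replicate 6 had 15892. At stage 37/38 their sum was 2214 to 9795 CPM with a mean of 6119 ± 3153 (SD, n = 6), and at stage 41 it was 3296 to 9519 CPM with a mean of 7056 ± 2349 (SD, n = 5). The stage 39 mean was 17318 ± 6811 CPM (SD, n = 6). Stage 39 replicate 1 lay within the range of the other stages, below replicates 1, 2, 4 and 5 of stage 37/38 and below replicates 1, 2, 3 and 4 of stage 41. The other 5 stage 39 libraries lay above every library of the other stages.

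A few abundant members weigh most in such a sum. The top 3 members of a library held 57.3% of it in stage 39 replicate 4, 50.4% in replicate 2 and 47.5% in replicate 5, but 20.9% in replicate 6. A measure in which each member counts equally is the mean over members of log2(CPM + 10) after subtracting each member's own mean. It was highest in stage 39 replicate 5 with 1.40 and replicate 6 with 1.20. Replicates 2 and 3 followed with 0.92 and 0.91, then replicate 4 with 0.53 and replicate 1 with 0.28. In 2 libraries of the other stages this mean was above that of stage 39 replicate 1, stage 41 replicate 2 with 0.49 and stage 37/38 replicate 1 with 0.39, and the remaining 9 lay between -1.17 and -0.34. The groups therefore overlapped on this measure. Over all kept genes the same mean also differed between libraries. It was 0.44 in stage 41 replicate 2 and 0.36 in stage 37/38 replicate 1. Within stage 39 it ran from -0.63 in replicate 4 and -0.26 in replicate 1 to 0.33 in replicate 5 and 0.40 in replicate 6. The members' means are not corrected for these differences, so the overlap and the order of the libraries include them.

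The 2 overlapping libraries were the deepest of their stages. Stage 37/38 replicate 1 had 365562 counts and a count above 0 for 93 members, and stage 41 replicate 2 had 748726 counts and a count above 0 for 94. Stage 37/38 replicate 5 was close to replicate 1 in depth, with 354480 counts. It had a count above 0 for 60 members and a mean of -0.34 on the measure above. Stage 39 replicate 5 had a count above 0 for 97 members, and the other stage 39 libraries for 74 to 90. In the shallowest library of stage 37/38, replicate 4 with 71698 counts, 40 members were detected, and in stage 41 replicate 4 with 67838 counts, 44. The fewest, 27, were detected in stage 41 replicate 5 with 174870 counts. Among the kept genes as a whole, 56.8% to 97.4% had a count in a library, and the stage 39 mean of 79.5% ± 9.48 (SD, n = 6) was near those of stage 37/38, 77.7% ± 13.2 (SD, n = 6), and of stage 41, 75.7% ± 15.8 (SD, n = 5). The part of depth in the members' values was not tested. With every library thinned to 60000 counts, an alternative chosen after seeing the data, the ranking chose 64 of the 100 members again. The median peak height of the 100 members was then 2.05, and 98 had their highest median at stage 39. They had been chosen for this at full depth from the same reads, so nothing is read from it. The kept genes were those filtered at full depth, and the filter was not applied to the thinned counts.

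**Figure D2:**
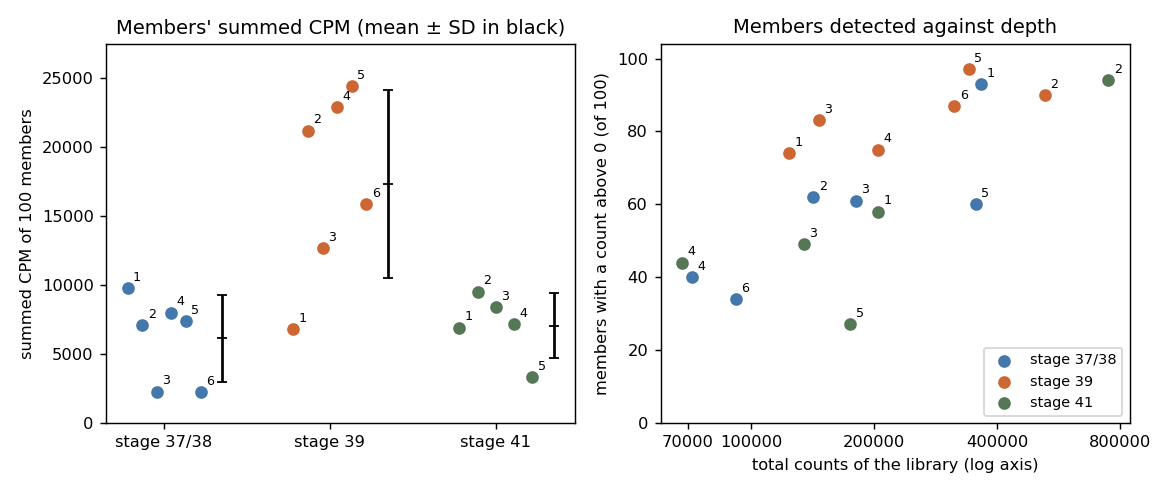
Left, summed CPM of the 100 members in each library by stage (points, numbered by replicate; black, mean ± SD of 6, 6 and 5 libraries). Right, number of members with a count above 0 against the total counts of the library on a log axis; stage 37/38 replicate 1 with 93 and stage 41 replicate 2 with 94 lie among the stage 39 libraries, which range from 74 to 97.

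Within stage 39 the members differed from library to library. The highest value over all 17 libraries fell in a stage 39 library for 63 members, in a stage 37/38 library for 16 and in a stage 41 library for 21, against 33.2%, 36.6% and 30.2% of the kept genes. The 63 were spread over replicate 6 with 18, replicate 4 with 14, replicate 3 with 12, replicate 5 with 10, replicate 2 with 8 and replicate 1 with 1. A member lay above the higher of its other stage medians in 67 of 100 cases in stage 39 replicate 1 and in 95 of 100 in replicate 5. Stage 37/38 replicate 1 reached 83 by this count, stage 41 replicate 2 reached 76, and the other 9 libraries of these stages 14 to 48.

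Full separation of stage 39 from both other stages was absent from all members. No member had all 6 stage 39 libraries above every stage 37/38 library, which was also so for 0% of the kept genes. Separation from stage 41 was complete in 1 member, against 0.0682% of the kept genes, or 2 genes. Lying above every library of both other stages was reached by at least 3 of the 6 stage 39 libraries in 27 members, of which 5 had 4 such libraries and 0 had 5 or 6. Among the kept genes 2.29% met the limit of 3 libraries. The rule favours such genes, so the difference between these shares is not a finding. In 37 members no stage 39 library exceeded every library of the other stages.

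The SD of log2(CPM + 10) among stage 39 libraries was 0.56 to 3.83 per member, with a median of 1.62. The median SD of the members was 1.31 at stage 37/38 and 1.51 at stage 41. Peak height exceeded the stage 39 SD in 69 members, and it exceeded the SD of each of the 3 stages in 50. For the other 50, the distance between the stages was within 1 SD of the libraries of at least 1 stage.

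Across the members, stage 39 replicates 2 and 4 were the most alike, with a Pearson correlation of log2(CPM + 10) of 0.677. Replicates 4 and 5 followed with 0.476 and replicates 5 and 6 with 0.442. The remaining 12 pairs of stage 39 libraries lay between -0.11 and 0.39. Pairs within stage 37/38 lay between 0.03 and 0.37, and pairs within stage 41 between 0.03 and 0.34. These correlations are across 100 genes that share their libraries, and are a description only. Over all kept genes the stage 39 pairs lay between 0.357 and 0.727, the highest being replicates 2 and 4. The genes that both of these libraries held at least 8-fold above their own median over the 17 libraries, on the log2(CPM + 10) scale, numbered 39, and 4 of them were members, which is 10.3% of those genes and 4% of the members. Such genes were 1.33% of the kept genes, and the members were 3.41% of the kept genes; the rule used both libraries, and nothing is read from these shares. Without replicates 2 and 4 the median peak height of the members was 1.91.

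TRINITY_DN4632_c0_g7 had the largest peak height, 5.02. At stage 39 it had 455 CPM in replicate 1, 56.1 in replicate 2, 395 in replicate 3, 260 in replicate 4, 379 in replicate 5 and 220 in replicate 6. At stage 37/38 it had 157 CPM in replicate 1 and 385 in replicate 4, and no count in the other 4 libraries. At stage 41 it had 582 CPM in replicate 2, the highest value of all 17 libraries, and no count in the other 4. It was thus present in every stage 39 library and in 3 of the 11 others, and where it was present its levels overlapped between the stages. Stage 39 averaged 294 ± 146 CPM (SD, n = 6), stage 37/38 averaged 90.2 ± 157 (SD, n = 6), and stage 41 averaged 116 ± 260 (SD, n = 5). In the 9 libraries with reads the gene had 27.6 to 436 expected counts.

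This gene is 1 of 12 that belong to the same assembly component, a group of linked sequences, and it held 12.5% of the counts of that component. Summed over the component, the stage medians were 1982 CPM at stage 37/38, 1641 at stage 39 and 1207 at stage 41, so the component as a whole was not highest at stage 39. Its peak height on the log2(CPM + 10) scale was -0.27. Reads of near-identical sequences can be divided between such genes during counting, and the separate count of TRINITY_DN4632_c0_g7 is uncertain for that reason.

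TRINITY_DN26930_c0_g1 was next with a peak height of 3.63. Its stage 39 values were 16.2 CPM in replicate 1, 236 in replicate 2, 0 in replicate 3, 405 in replicate 4, 79.2 in replicate 5 and 162 in replicate 6. At stage 37/38 it had 54.7 CPM in replicate 1, 14.1 in replicate 2 and no count in the other 4 libraries. At stage 41 it had 53.4 CPM in replicate 2, 14.7 in replicate 4, which is 1 read, and no count in the other 3. Replicates 2, 4, 5 and 6 of stage 39 lay above all libraries of the other stages, and replicates 1 and 3 fell within their range. Its mean was 150 ± 154 CPM (SD, n = 6) at stage 39, where the SD exceeded the mean. It has 4 transcripts and a component to itself. Without stage 39 replicates 2 and 4 its peak height was 2.27.

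TRINITY_DN30417_c0_g2, with a peak height of 2.72 at rank 6, was the member separated from stage 41 in all 6 stage 39 libraries. At stage 39 it had 32.3 CPM in replicate 1, 40.0 in replicate 2, 87.5 in replicate 3, 87.7 in replicate 4, 37.3 in replicate 5 and 76.3 in replicate 6. At stage 41 it had 2.29 CPM in replicate 1, 8.01 in replicate 2 and no count in the other 3. At stage 37/38 it had 49.2 CPM in replicate 1, 13.9 in replicate 4 and no count in the other 4. The stage 39 range was narrow, with an SD of 0.56 on the log2(CPM + 10) scale, the smallest of all members, and stage 37/38 replicate 1 was the only library of another stage within it. These CPM values stand for 4 to 24 counts at stage 39. The sum of its component, which has 2 genes, had a peak height of 2.04, and the gene itself held 82.5% of the counts in that sum.

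TRINITY_DN6161_c0_g1, at rank 52 with a peak height of 1.77, had 5 of 6 stage 39 libraries above every stage 41 library. Its stage 39 values were 40.4 CPM in replicate 1, 21.0 in replicate 2, 47.8 in replicate 3, 0 in replicate 4, 38.1 in replicate 5 and 146 in replicate 6. At stage 41 it had 6.68 CPM in replicate 2 and no count in the other 4 libraries. At stage 37/38 it had 10.9 CPM in replicate 1, 33.2 in replicate 3, 64.9 in replicate 5 and no count in the other 3. Stage 39 lay apart from stage 41 except for replicate 4, whereas replicate 6 was the only stage 39 library above all of stage 37/38.

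**Figure D3:**
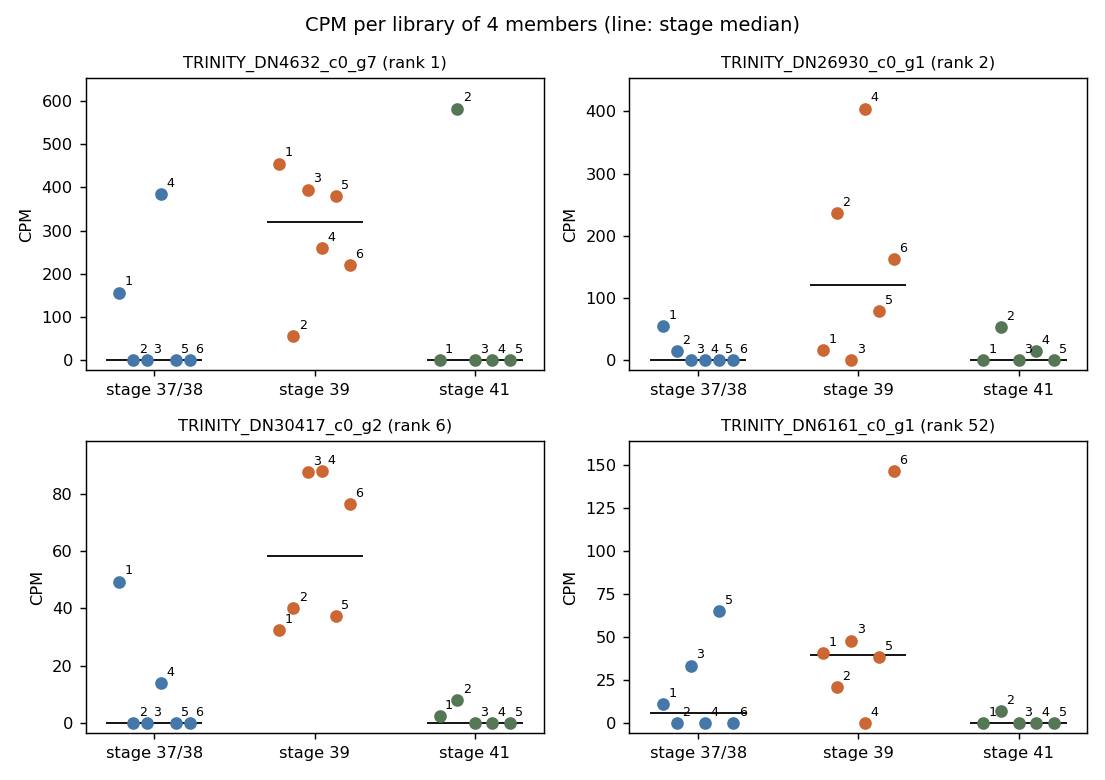
CPM of 4 members in each library by stage (points, numbered by replicate; line, stage median). Stage 39 medians of 320, 121, 58.2 and 39.3 CPM stand against medians of 0 to 5.47 CPM at the other stages. For the members at ranks 2 and 52 the stage 39 range starts at 0 CPM and takes in every library of the other stages. For those at ranks 1 and 6, some libraries of the other stages reach into the stage 39 range or, at rank 1, above it.

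Of the other members, some were uneven and some even within stage 39, and the 3 given here were picked after their values were seen. The member at rank 69 had the largest summed count, 7182. At stage 39 it had 129 CPM in replicate 1, 3916 in replicate 2, 512 in replicate 3, 6805 in replicate 4, 4855 in replicate 5 and 1135.5 in replicate 6. At stage 37/38 it ranged from 25.4 to 3347 CPM with a median of 364, and at stage 41 from 480 to 1713 CPM with a median of 685. Replicates 2, 4 and 5 of stage 39 were above all other libraries, and replicate 1 was below every stage 41 library. At stage 39 the member at rank 50 reached 3401 CPM in replicate 2 and 5255 in replicate 4, was lower in replicate 5 with 815 and replicate 6 with 153, and had 6.83 CPM in replicate 3 and no count in replicate 1. Its stage 37/38 values were 0 to 98.5 CPM, and its stage 41 values 0 to 342 CPM. Its SD among stage 39 libraries, 3.83 on the log2(CPM + 10) scale, was the largest of all members. The member at rank 42, with 302 counts in all, was far more even within stage 39, with an SD of 0.59 and values of 57.3 to 177 CPM. Its highest value of all 17 libraries was 178 CPM in stage 37/38 replicate 1, and stage 41 replicate 3 had 148 CPM. Thus 0 of its 6 stage 39 libraries lay above every library of the other stages.

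An assembly component was shared with another gene by 39 of the 100 members, against 31.3% of the kept genes, and each member came from a component of its own. Of the member counts above 0, 14.7% were not whole numbers, against 11.1% in the kept genes, a count being fractional where reads were divided between sequences. More than 1 transcript was assembled for 16 members and for 9.42% of the kept genes. Summed over their components, the 39 members had a median peak height of 0.29 in place of 1.87, and the sum was still highest at stage 39 in 25 of them. The sum was within 0.5 of the member's own height in 8. Each sum includes the member itself, which held from 6.76% of the component's counts at rank 7 to 100% at rank 84. Where the member holds most of the counts, the sum follows it, so nothing is read from the 25 and the 8. The 21 kept genes in the same components that were not members had a median height of -0.70, close to the -0.54 of all kept genes, and 4 of the 21 were highest at stage 39. Whether the genes of a component are copies, isoforms or different genes was not tested.

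The same rule gave peaks of like size at each stage. With stage 37/38 as the peak, 1093 kept genes had their highest median there, and the top 100 had a median height of 1.86, with 3.79 at rank 1 and 1.49 at rank 100. With stage 41 as the peak, the number was 1029, and the top 100 had a median of 1.83, with 3.27 at rank 1 and 1.497 at rank 100. The members, with a median of 1.77 and 1.43 at rank 100, were the lowest of the 3 sets by either value, while ranks 1 and 2 stood above their counterparts at both other stages. At least 3 libraries above every library of the other stages were found in 27 members, in 22 of the stage 37/38 set and in 18 of the stage 41 set, where a stage has 5 libraries and not 6. The stage 39 set was also mirrored by a trough, since 1039 kept genes had their lowest median at stage 39, and the 100 deepest of these had a median depth of 1.84. The heights by rank are set side by side without a test, as the genes were chosen for them.

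**Figure D4:**
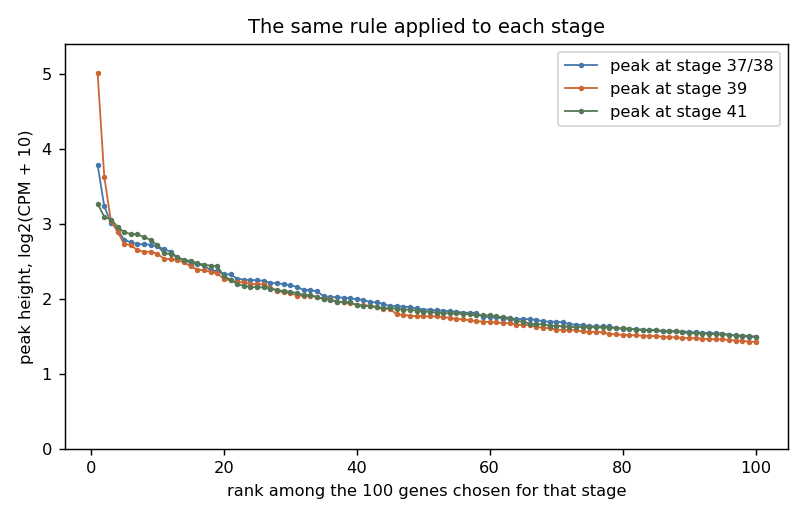
Peak height on the log2(CPM + 10) scale against rank for the 100 genes chosen by the same rule at stage 37/38, stage 39 and stage 41. The stage 39 curve is the highest at ranks 1 and 2, with 5.02 and 3.63, and the lowest at rank 100, with 1.43.

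Peak heights can be ranked in 1 run of title letters and looked up in the other, although the 2931 kept genes were still those filtered on all 17 libraries, so the other run had a part in which genes could be chosen. When the kept genes were ranked by the 9 libraries of letters A to J, with 3 of stage 37/38, 4 of stage 39 and 2 of stage 41, the 100 genes chosen had a median height of 1.43 there. In the libraries of letters K to R the same genes had a median height of -0.23, against -0.19 over all kept genes. There 47 of the 100 were highest at stage 39, against 44.8% of all kept genes. When they were ranked by the 8 libraries of letters K to R, with 3, 2 and 3 libraries, the median height was 3.28. In letters A to J those genes had a median height of -0.79, against -0.94 over all kept genes. There 19 of the 100 were highest at stage 39, against 17.4% of all kept genes. Both counts were close to the share of the kept genes, so in these libraries a stage 39 peak in 1 run of letters went with hardly more stage 39 peaks in the other. The stage 41 median in A to J and the stage 39 median in K to R each rest on 2 libraries. Whether peaks recur between the runs cannot be told from so few. The lists of the runs had 6 genes in common, where 100 genes are 3.41% of the kept genes. Of their genes, 29 and 32 were among the members, which were ranked on the libraries of both runs, so nothing is read from this.

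Stage 39 peaks were commoner in letters K to R than in A to J among all kept genes. The stage 39 libraries of K to R had 341080 and 314400 counts, while the other 6 libraries of that run had 67838 to 354480. In A to J the stage 39 libraries had 123805 to 524502 counts, and the others 142155 to 748726. The stage medians rest on 3, 4 and 2 libraries in A to J and on 3, 2 and 3 in K to R, in order of stage. A median of 2 libraries is their mean, which 1 high library can lift. The parts of depth and of these library numbers in the difference were not tested. Of the members, 67 were highest at stage 39 within A to J, with a median height of 0.53, and 92 within K to R, with a median height of 2.27. These values rest on the same unequal library numbers. In 61 members stage 39 was highest within both runs, against 8.09% of the kept genes, but the members were chosen from both runs together and nothing is read from this difference.

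**Figure D5:**
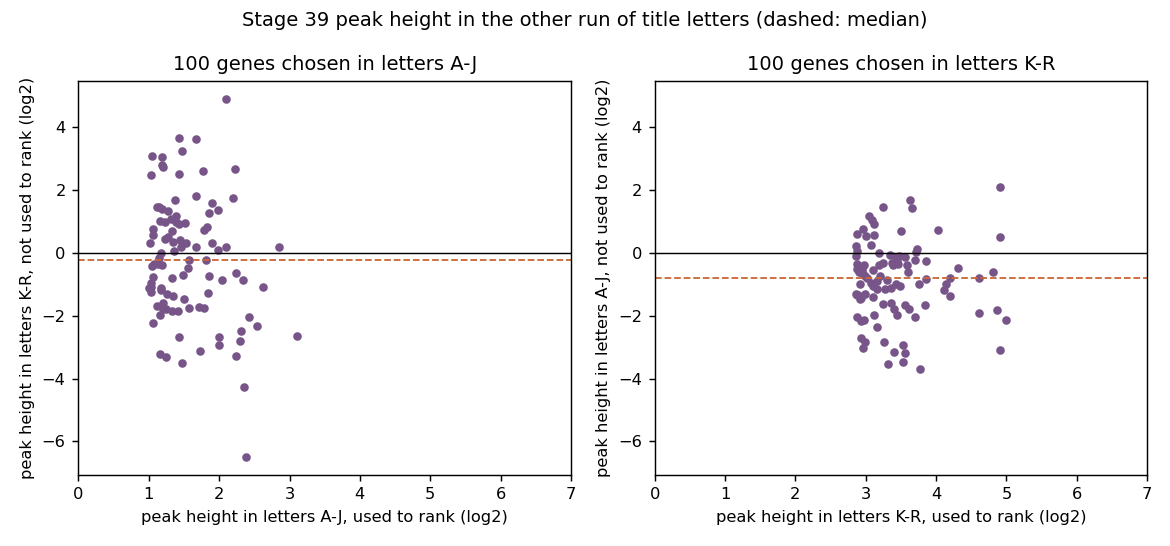
Stage 39 peak height in the run of title letters that did not rank the genes (vertical, log2) against that in the run that ranked them (horizontal, log2), for 100 genes chosen in letters A to J (left) and 100 chosen in K to R (right). The dashed medians lie at -0.23 and -0.79, where all kept genes have medians of -0.19 and -0.94 (not drawn). The points spread to both sides of 0.

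The fits over all genes set the members against the whole table. Genes with too few counts to fit were left out by stage, after which 64 members remained, 64% of them, against 65.5% of the kept genes. In edgeR's quasi-likelihood test 0 of 1985 genes were called higher at stage 39 than at stage 37/38 at an adjusted p under 0.05, a share of 0%, and 0 of the 64 members. The same was true of stage 39 against stage 41 and of stage 39 against the mean of the other stages, with 0% called in each. At an unadjusted p under 0.05 there were 87, 47 and 89 genes in these comparisons, in either direction, among them 12, 8 and 20 members, which the rule had picked for these contrasts. The smallest adjusted p of a member was 0.613, 0.999 and 0.262 in edgeR, which was also the smallest of all genes in each comparison.

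The fitted fold changes of the 64 members had a median of 1.70 on the log2 scale for stage 39 above stage 37/38 and 1.68 for stage 39 above stage 41, against 0.12 and 0.15 over all 1985 genes. They were positive in 62 members in each comparison, where 54.8% and 57.1% of all genes were. These values follow from the choice. DESeq2 called 17 of the 675 genes to which it gave an adjusted p higher at stage 39 than at stage 37/38, or 2.52%, and 1 of 18 members, the one at rank 50 (log2 fold change 7.32, DESeq2 adjusted p = 0.00502). Its values were 3401 and 5255 CPM in stage 39 replicates 2 and 4, and 0 to 815 CPM in the other 4 libraries of that stage. For stage 39 against stage 41 DESeq2 called 0%, and against the mean of the other stages it called 1 of 1983 genes, or 0.0504%, which was not a member. With limma-voom 0 genes were called in all 3 comparisons, with 92, 80 and 102 at an unadjusted p under 0.05.

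Membership depended on single libraries. With any 1 of the 17 libraries left out and the rule applied again, 53 to 76 of the 100 members were chosen again, the fewest without stage 39 replicate 5. Part of this came from the filter, which 69 members passed without that library. With any 1 library left out, 67 to 98 members passed it. The median height of the 100 members themselves lay between 1.51 without stage 41 replicate 5 and 2.02 without stage 37/38 replicate 1. Of these genes, 98 to 100 still had their highest median at stage 39. All 17 libraries had been used to choose them for a large height, so this follows largely from the choice and nothing is read from it. Leaving out stage 39 replicates 5 and 6 together, a pair chosen after seeing the data, gave a median height of 1.47. Of the members, 48 then passed the filter and 36 were chosen again. Leaving out replicates 2 and 4 together, 62 passed the filter and 42 were chosen again.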

How the data were processed

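Per the submitters' processing notes, Trimmomatic, Bowtie2 and RSEM were used; their versions and settings are not stated in these notes. The authors deposited expected counts per gene of a Trinity assembly, summed over isoforms per the labels' design text, and of the values above 0, 8.79% were not whole. The deposited map of 21244 transcripts to genes holds identifiers only, of no measured unit (other). How the assembly was made is not given in the sources used here.

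Stage medians and peak heights were computed from the unrounded counts with Python 3.11.15. Expected counts were rounded for the fits over all genes: edgeR 4.0.16 (glmQLFit, glmQLFTest) with TMM, filterByExpr at a minimum count of 10, 1 coefficient per stage over 17 libraries and Benjamini-Hochberg adjustment over 1985 genes. DESeq2 1.42.0 and limma 3.58.1 (voom) were alternatives. The pipeline and the rule were tested on simulated data. The members, lists and comparisons were chosen with earlier results of these data known. The genes named are the 2 with the largest peak height and the 2 with the most stage 39 libraries above all stage 41 libraries. Alternatives were other pseudocounts, scalings, filters, stage means, the replicate block, the letter runs, thinning and leaving out libraries. The low totals limit the precision of each value.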

Additional observations from a re-analysis of the deposited data

Results flagged for a closer look

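Dixon's gap test was applied within each stage to the summed and mean levels of the members, to the number of members detected and to the 4 named genes, 21 sets of values in all, and 7 held a library set apart. The usual rate of about 1 in 20 by chance does not apply here, since 6 of the 7 are values of genes chosen for low medians at those stages, where most libraries are at 0 and, with all others at 0, any count is set apart.

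Stage 41 replicate 2, the deepest library with 748726 counts, gave 4 of the 7. It had 582 CPM of TRINITY_DN4632_c0_g7 against 0 in the other 4 libraries of its stage, 53.4 CPM of TRINITY_DN26930_c0_g1 against 0 to 14.7, 8.01 CPM of TRINITY_DN30417_c0_g2 against 0 to 2.29, and 6.68 CPM of TRINITY_DN6161_c0_g1 against 0. The last of these stands for 5 counts, a level below the 14.7 CPM of 1 read in the shallowest library. Stage 37/38 replicate 1, the deepest library of its stage with 365562 counts, gave another pair, with 54.7 CPM of TRINITY_DN26930_c0_g1 against 0 to 14.1 in the other 5 libraries and 49.2 CPM of TRINITY_DN30417_c0_g2 against 0 to 13.9. Stage 39 replicate 6 had 146 CPM of TRINITY_DN6161_c0_g1 against 0 to 47.8 in the other 5. The part of depth in these values was not tested.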

How the results depend on the processing

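Called genes numbered 0 in each of the 3 edgeR comparisons, and remained 0 with DESeq2's size factors, with limma-voom, with the filter of the member rule, with the letter run as a term, without stage 39 replicates 2 and 4, and with each library left out (0 to 0). DESeq2 called 17 genes for stage 39 against 37/38 and 1 for stage 39 against the mean of the other stages. When every gene with a count was tested, with no filter on low counts, edgeR called 41, 10 and 81 of 16101 genes for stage 39 against 37/38, 41 against 39 and 39 against the mean of the others, among them 3, 1 and 2 members; the cause was not tested.

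The median peak height of the members, 1.77, was 2.71 with a pseudocount of 1 and 0.91 with a pseudocount of 50, as the scale itself changes. It was 1.10 with stage means in place of medians, 1.95 with TMM scaling and 2.05 after thinning to 60000 counts. In letters A to J it was 0.53 and in K to R 2.27, and with 1 library left out it was 1.51 to 2.02. Of the 100 members, 56 were chosen again with stage means, 29 in letters A to J, 32 in K to R, 64 after thinning to 60000 counts, 42 without stage 39 replicates 2 and 4, 36 without replicates 5 and 6, and 53 to 76 with 1 library left out. Requiring a count in all 17 libraries left 4, since only these pass. The filter was also applied again where libraries were left out. It was passed by 62 members without stage 39 replicates 2 and 4 and by 48 without replicates 5 and 6. Pseudocounts of 1 and 50, TMM scaling and no minimum number of libraries kept 69, 75, 84 and 69. The thinning and the removal of replicates 5 and 6 were chosen after seeing the data, and the thinned counts were ranked among the genes kept at full depth.

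Same-numbered libraries of different stages did not deviate together, with correlations of -0.14 to 0.05 in 16 pairs. With the replicate block edgeR called 0 genes in each comparison. Falls from a low level are limited by depth, since 1 read is worth 1.34 to 14.7 CPM.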
